A study of Mus musculus with 10 samples.

Results

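Regulatory T cells (Tregs) were examined through 7 genes: Foxp3, Il2ra, Ikzf2, Tnfrsf4, Tnfrsf9, Tnfrsf18 and Icos. These 7 were taken by name from the 32285 genes of the expression matrices. Each was followed in T cells, defined as cells with at least 2 unique molecular identifiers (UMIs, each a counted mRNA molecule) of Cd3e, Cd3d and Cd3g together, the genes of the T cell receptor complex. Cells also needed at least 500 detected genes and at most 10% of UMIs from mitochondrial genes. Of 41936 barcodes, 31156 passed these limits on genes and mitochondrial UMIs, and 3911 of them were T cells. A Foxp3 UMI was present in 403 of the T cells, called Foxp3+ here, and a Cd8a UMI in 1172.

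Tregs restrain immune responses, and in tumors they can dampen the attack by other T cells. Foxp3 is the transcription factor that defines them, Ikzf2 encodes Helios, a transcription factor found in many Tregs, and Il2ra encodes CD25, the IL-2 receptor chain that lets Tregs capture IL-2. Tnfrsf4 (OX40), Tnfrsf9 (4-1BB) and Tnfrsf18 (GITR) are costimulatory receptors of the tumor necrosis factor (TNF) receptor family that signal through TRAF adaptors to NF-kappaB. Icos is a CD28 family costimulator. All except Foxp3 are also induced on conventional T cells by activation.

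The cells came from SW1 melanomas grown in the right flank of female C3H/HeJ mice aged 4 to 6 weeks, sorted for CD45, the pan-leukocyte marker encoded by Ptprc. Tumors grew for 10 days per the labels, and the study's methods give a longer time. The groups were a pretreatment day 0 pool of 3 mice, and control and L-fuc pools at day 7 and at day 21. L-fuc (L-fucose, a dietary sugar) was given in the drinking water, and controls drank water without it. No group carried a genetic change, and the labels conflict on the dose, given as 100 mM and as 100 nM, and on the mice per arm, given as 5 and as 6. Each of the 5 conditions was 1 pool of mice and 1 expression library, with a receptor library from the same pool, so no test between conditions was possible. Every interval given for a share, a ratio of shares or a level is a 95% interval that covers counting error only.

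Depth and purity differed between libraries. T cells numbered 477 at pretreatment, 1497 and 1820 in the control and L-fuc libraries of day 7, and 67 and 50 in those of day 21. Foxp3+ cells in the same order numbered 70, 157, 165, 6 and 5. The median T cell held between 4615 and 5130.5 UMIs in 4 libraries and 10904.5 in L-fuc day 21, and the day 7 libraries shared 433 barcodes and 1 T cell barcode. Despite the CD45 sort, 12075 kept cells in all 5 libraries were tumor or stroma-like, with no Ptprc UMI and with UMIs of Sparc and related genes. A Sparc UMI was found in 80.7% of control day 7 T cells and 34.1% of L-fuc day 7 T cells, against 2.94% at pretreatment day 0, and no Ptprc UMI in 27.3%, 14.8% and 15.9%. The other T cell marker Lck was present in 48.3%, 70.3% and 76.3% of these T cells. At least 5 UMIs of the macrophage genes C1qa, C1qb and C1qc together were present in many T cells. Such C1q-rich cells were 18.9% at pretreatment, 34.2% and 37.4% in control and L-fuc day 7, and 20.9% and 28.0% at day 21. Without them, 45 of 70 Foxp3+ cells remained at pretreatment, 92 of 157 in control day 7 and 98 of 165 in L-fuc day 7. A productive receptor chain was recovered for 51.8% of control day 7 and 57.4% of L-fuc day 7 T cells, against 79.2% at pretreatment day 0, 77.6% in control day 21 and 44.0% in L-fuc day 21. Outside the T cell gate a chain was recovered for at most 0.963% of cells. In control day 7 these were 158 cells, with 776 inside the gate, and in L-fuc day 7 24 cells, with 1045 inside. The gate thus left out receptor-bearing cells unequally in the day 7 libraries. Ratios of shares over all T cells are also given for T cells with a receptor chain, except for L-fuc day 7 over pretreatment day 0. These cells lie inside the same gate. They leave out gated cells without a chain, but do not bring back the receptor-bearing cells that the gate left out.

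On the mouse genome (GRCm38, GENCODE vM21), Tnfrsf4 (chr4:156013843-156016612, + strand) and Tnfrsf18 (chr4:156026164-156028895, + strand) were neighbors, 9551 bases apart. Tnfrsf9 lay at chr4:150914562-150946102 (+ strand), Foxp3 at chrX:7573644-7595245 (+ strand), Il2ra at chr2:11642807-11693193 (+ strand), Ikzf2 at chr1:69531214-69687245 (- strand) and Icos at chr1:60977927-61000320 (+ strand). The antisense gene Gm16008 overlaps the first exon of Tnfrsf18, and whether strand was used in counting is not given in the sources used here.

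RefSeq promoter windows (GRCm38.p6) matched 5 of the 7 genes. The 250 bases upstream of a RefSeq start are shown for the gene that defined the classes (Foxp3), for the member with the largest difference between them (Il2ra) and for the member with the largest gap between the day 21 libraries (Tnfrsf9). Capitals mark the forkhead core TGTTT or AAACA, the kind of site FOXP3 binds, and the NFAT core GGAAA or TTTCC, both searched on both strands.
Foxp3, chrX:7580233-7580482, + strand: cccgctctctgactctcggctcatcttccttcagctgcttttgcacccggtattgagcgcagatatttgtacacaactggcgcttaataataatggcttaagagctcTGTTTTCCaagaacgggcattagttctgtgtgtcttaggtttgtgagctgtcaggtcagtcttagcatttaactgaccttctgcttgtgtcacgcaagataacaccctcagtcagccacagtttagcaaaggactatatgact
Il2ra, chr2:11642542-11642791, + strand: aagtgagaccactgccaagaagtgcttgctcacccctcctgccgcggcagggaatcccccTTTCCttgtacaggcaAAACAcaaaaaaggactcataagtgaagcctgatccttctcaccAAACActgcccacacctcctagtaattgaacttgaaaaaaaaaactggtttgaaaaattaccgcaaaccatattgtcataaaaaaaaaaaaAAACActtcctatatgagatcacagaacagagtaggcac
Tnfrsf9, chr4:150919905-150920154, + strand: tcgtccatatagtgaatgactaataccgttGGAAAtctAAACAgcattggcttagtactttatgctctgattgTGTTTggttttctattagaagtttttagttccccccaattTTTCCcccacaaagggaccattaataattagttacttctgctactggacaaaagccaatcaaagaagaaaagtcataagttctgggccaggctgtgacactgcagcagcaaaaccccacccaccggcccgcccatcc
The Foxp3 window held 1 forkhead and 1 NFAT core, which overlapped each other, the Il2ra window 3 and 1, and the Tnfrsf9 window 2 and 2. Of 32851 windows of this length, 46.4% held a forkhead core and 55.6% an NFAT core, so these matches are a description of the sequence. The windows of Tnfrsf4 and Tnfrsf18 each held 1 forkhead core, with 1 and 2 NFAT cores. They overlap untranslated exon sequence, of the gene Sdf4 and of Tnfrsf18 itself. The printed Foxp3 window overlaps an exon of the gene Flicr. The printed Foxp3 and Tnfrsf9 windows lie inside the GENCODE spans of these genes given above. Foxp3 and Tnfrsf9 each have a second RefSeq window, which is not printed because it overlaps untranslated exon sequence, with 2 forkhead cores and 1 NFAT core for Foxp3 and 1 and 3 for Tnfrsf9.

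All 6 other genes were higher in Foxp3+ than in Foxp3-negative T cells of the same library. This comparison asked which of the genes went with Foxp3 in single cells, and rested on the 3 libraries with at least 10 Foxp3+ cells (pretreatment day 0, control day 7 and L-fuc day 7). UMIs were summed over each class and library and tested with edgeR's quasi-likelihood test with the library as a block, with Benjamini-Hochberg adjustment over 10673 genes. Of these, 1.41% were called higher in Foxp3+ cells and 0.937% lower at an adjusted p under 0.05, and the members were 6 of 6 higher, each in 3 of 3 libraries. Their median log2 fold change was 2.20, against -0.01 over all genes tested.

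Il2ra had the largest difference of the members. It was found in 65.7% of Foxp3+ against 7.62% of Foxp3-negative cells at pretreatment day 0, 42.0% against 8.81% in control day 7 and 55.8% against 11.1% in L-fuc day 7. Its summed level was 197, 131 and 146 UMIs per 1000000 in Foxp3+ cells, against 16.8, 20.9 and 28.5 in Foxp3-negative cells. Every summed Foxp3+ level lay above every Foxp3-negative level, as for each other member, and how many of all genes did so was not counted. The log2 fold change was 2.75 (SE 0.19, edgeR adjusted p = 1.28e-05).

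Ikzf2 followed, with Foxp3+ levels of 234, 308 and 431 UMIs per 1000000 in the pretreatment, control day 7 and L-fuc day 7 libraries, and Foxp3-negative levels of 39.5, 65.7 and 75.5. Its share was 75.7%, 74.5% and 84.8% of Foxp3+ cells and 18.2%, 23.1% and 26.9% of Foxp3-negative cells. The log2 fold change was 2.40 (SE 0.13, edgeR adjusted p = 2.56e-06).

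Among the TNF receptors, Tnfrsf4 separated the classes most. It was found in 84.3%, 54.8% and 77.6% of Foxp3+ cells in the pretreatment, control day 7 and L-fuc day 7 libraries, and in 19.2%, 13.0% and 18.7% of Foxp3-negative cells. Its levels were 559, 194 and 448 UMIs per 1000000 against 111, 45.3 and 74.9, a log2 fold change of 2.32 (SE 0.14, edgeR adjusted p = 5.89e-06). The Foxp3+ level was lowest in control day 7 and still above every Foxp3-negative level.

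Tnfrsf9 was found in 68.6%, 52.9% and 69.7% of Foxp3+ cells and in 15.7%, 13.7% and 19.6% of Foxp3-negative cells, in the same order of libraries. Its levels were 545, 214 and 500 UMIs per 1000000 against 103, 59.9 and 117, a log2 fold change of 2.08 (SE 0.14, edgeR adjusted p = 9.39e-06).

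Tnfrsf18 had the smallest difference of the members against all Foxp3-negative T cells, many of which also carried it. It was found in 88.6%, 66.9% and 81.8% of Foxp3+ cells but also in 48.2%, 26.8% and 45.8% of Foxp3-negative cells, with levels of 450, 220 and 391 against 152, 76.0 and 141 UMIs per 1000000. The log2 fold change was 1.50 (SE 0.12, edgeR adjusted p = 3.81e-05).

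Icos was found in 65.7%, 43.9% and 72.1% of Foxp3+ cells and in 21.1%, 14.6% and 27.3% of Foxp3-negative cells. Its levels were 228, 117 and 250 UMIs per 1000000 against 52.7, 34.6 and 84.2, a log2 fold change of 1.77 (SE 0.13, edgeR adjusted p = 2.66e-05).

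The difference depended on which T cells Foxp3+ cells were set against. Many Foxp3-negative cells had neither a Cd4 nor a Cd8a UMI. They were 163 of 407 at pretreatment, 784 of 1340 in control day 7 and 787 of 1655 in L-fuc day 7. A receptor chain was recovered for 68.1%, 36.0% and 37.4% of them. Against Foxp3-negative cells with a Cd4 UMI and no Cd8a UMI, Il2ra (log2 fold change 1.92, edgeR adjusted p = 0.0408), Ikzf2 (2.08, 0.0037) and Tnfrsf4 (1.32, 0.0248) remained called. Tnfrsf9 (1.29, adjusted p = 0.107), Tnfrsf18 (0.81, 0.0844) and Icos (0.77, 0.216) did not pass in that edgeR fit. Foxp3+ cells were also deeper, with medians of 6450, 6419 and 8575 UMIs against 4722, 4414.5 and 4938. With each cell thinned to 1000 UMIs before summing, all 6 still passed in edgeR.

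**Figure D1:**
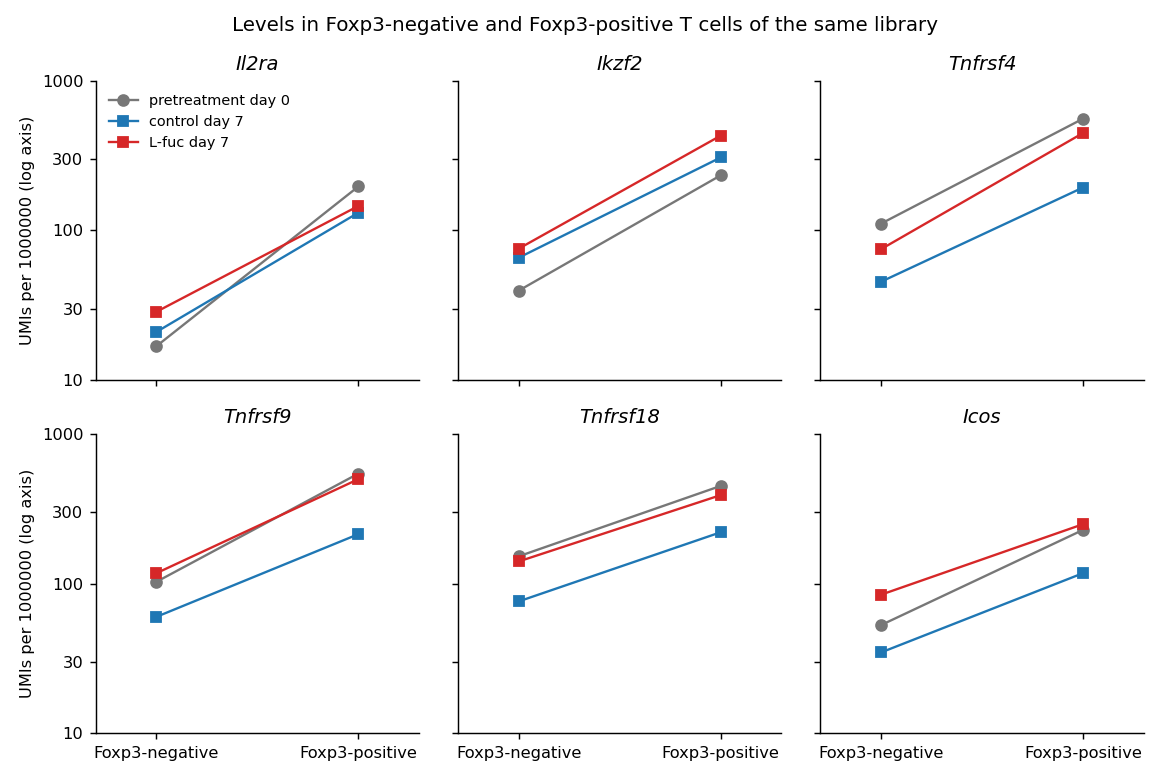
Summed level of each gene (UMIs per 1000000, log axis) in Foxp3-negative and Foxp3-positive T cells of the 3 libraries with enough Foxp3+ cells; each line joins the classes of 1 library. Every line rises from Foxp3-negative to Foxp3-positive for all 6 genes, and control day 7 has the lowest Foxp3-positive level of Il2ra, Tnfrsf4, Tnfrsf9, Tnfrsf18 and Icos.

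The Foxp3+ cells carried other Treg genes as well. Of a list of 20 genes of the Treg signature, 19 were tested, 10 were higher and none was lower, with a median log2 fold change of 1.19. The largest was Lrrc32 (GARP, which holds latent TGF-beta on the Treg surface), at 3.05 (SE 0.32, edgeR adjusted p = 0.000348). Ikzf4, an Ikaros family factor, rose by 2.22, the inhibitory receptor Ctla4 by 2.10, the folate receptor family gene Izumo1r by 2.14, the chemokine receptor Ccr8 by 1.54 and the inhibitory receptor Tigit by 1.49, and Klrg1, Itgae, Areg and Gzmb also passed. Il10 (0.67), Entpd1 (0.31), Nt5e (-0.09), Capg (0.55), Nrp1 (-0.11), Tgfb1 (0.34), Il1rl1 (1.19), Ebi3 (0.75) and Cd81 (0.19) did not pass, and Gpr83 was too low to test.

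By their medians, the other lists of receptor, signalling and ligand genes differed less than the members. A list of 9 other genes of the TNF and CD28 families had a median of 0.30. It includes the ligand gene Cd40lg and the inhibitory receptors Btla and Pdcd1. Tnfrsf8 (CD30) at 2.49 (SE 0.43), above each member but Il2ra, and Tnfrsf1b (TNFR2) at 1.34 (SE 0.13) were higher in Foxp3+ cells. Cd27 (0.58, adjusted p = 0.0935), Cd28 (0.46), Pdcd1 (0.13), Cd40lg (-0.77) and Btla (-1.11) did not pass in edgeR. Of 10 genes of TNF receptor signalling, the adaptor Traf1 (0.70, SE 0.12) and the NF-kappaB subunit gene Nfkb2 (0.83, SE 0.16) were called, and the list's median was 0.40. None of the 9 tested genes of the IL-2 pathway passed, although all 9 log2 fold changes were above 0, with a median of 0.35. Among 4 tested ligands, Cd80 was higher (1.94, SE 0.37) and Tnfsf9, Icosl and Cd86 did not pass. C1q-rich cells were included here, and their part in the Cd80 difference was not tested.

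Outside the lists, the genes with the largest differences toward Foxp3+ cells were Rln3 (2.68), Neb (2.64), Trav6-1 (2.61), Ptpn5 (2.32) and Tbc1d30 (2.31). The largest toward Foxp3-negative cells were the immunoglobulin light chain segments Igkv10-96 (-9.50) and Igkv3-2 (-6.54), the neutrophil genes S100a8 (-4.22) and Retnlg (-4.13), and Ccl24 (-3.72), a chemokine gene of macrophages. These last 5 are genes of other cell types, and their part in the result was not tested.

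A Foxp3 UMI did not mark a uniform population. Cd4 mRNA was found in 40.0%, 32.5% and 63.6% of Foxp3+ cells in the pretreatment, control day 7 and L-fuc day 7 libraries, and Cd8a mRNA in 14 of 70, 41 of 157 (26.1%) and 40 of 165 (24.2%). Only 1 Foxp3 UMI was present in 32.9%, 69.4% and 37.6% of them, and the most in 1 cell was 22, in L-fuc day 7. Foxp3+ cells with a Cd8a UMI carried the other members about as often as those without: in L-fuc day 7, Tnfrsf18 was in 36 of 40 against 99 of 125 (79.2%) and Tnfrsf9 in 30 of 40 (75.0%) against 85 of 125 (68.0%). Tnfrsf4 there was lower, in 25 of 40 (62.5%, interval 45.8 to 77.3%) against 103 of 125 (82.4%, interval 74.6 to 88.6%), and in control day 7 it was in 51.2% against 56.0%. Requiring at least 2 Foxp3 UMIs left all 6 members called in edgeR.

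The T cell threshold mattered for Foxp3 itself. Among cells just inside it, with exactly 2 Cd3 UMIs, 2 of 17, 23 of 491, 8 of 274, 0 of 7 and 1 of 15 were Foxp3+ at pretreatment, in the control and L-fuc libraries of day 7, and in those of day 21. Just outside it, with 1 Cd3 UMI, 1 of 22, 32 of 2335, 13 of 813, 0 of 49 and 0 of 41 were.

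Single cells often carried several members together. Of the other 6 genes, the median Foxp3+ cell held 5 at pretreatment day 0, 3 in control day 7 and 5 in L-fuc day 7, against 1 in Foxp3-negative cells of each. All 6 were found in 34.3%, 10.8% and 33.9% of Foxp3+ cells and in 0.737%, 0.597% and 2.18% of Foxp3-negative cells. Tnfrsf4, Tnfrsf9 and Tnfrsf18 were all present in 61.4%, 33.1% and 58.8% of Foxp3+ cells and in 9.09%, 4.93% and 7.67% of Foxp3-negative cells, and after thinning to 1000 UMIs in 18.8%, 2.58% and 12.1% against 0.998%, 0.377% and 0.732%. Control day 7 was thus the lowest of the 3 libraries before and after thinning.

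**Figure D2:**
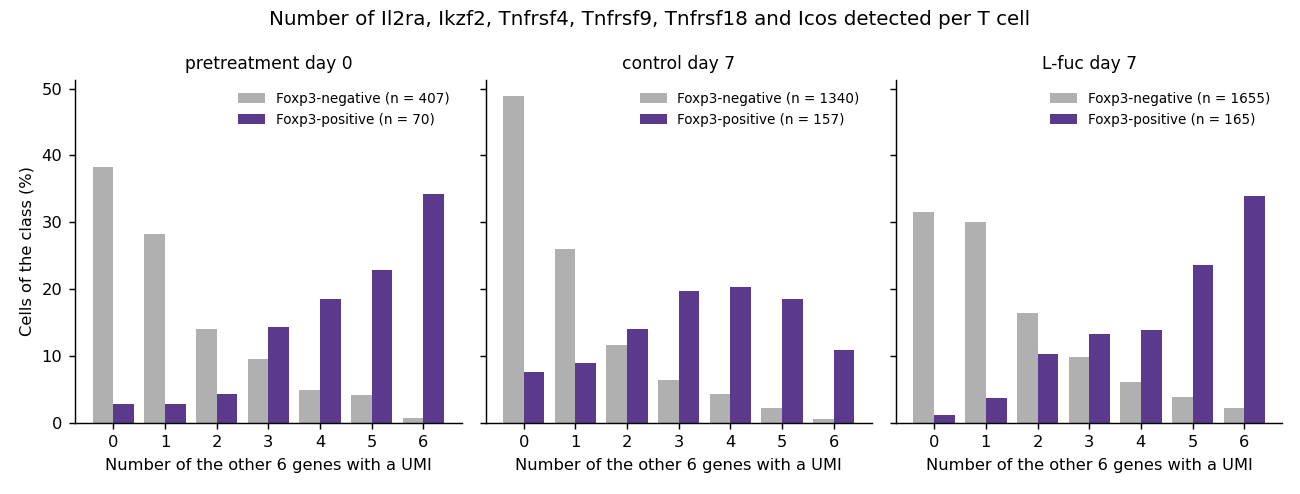
Percent of Foxp3-negative and Foxp3-positive T cells by the number of the other 6 genes with a UMI, in 3 libraries. Foxp3-negative cells pile up at 0 and 1, while Foxp3-positive cells reach all 6 genes in 34.3% and 33.9% of cells at pretreatment day 0 and L-fuc day 7, and in 10.8% in control day 7.

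The share of T cells with each gene was set side by side over the 5 libraries. Foxp3 was found in 14.7% of T cells at pretreatment (interval 11.6 to 18.2%). At day 7 it was in 10.5% for control (8.98 to 12.2%) and 9.07% for L-fuc (7.79 to 10.5%), and at day 21 in 8.96% (3.36 to 18.5%) and 10.0% (3.33 to 21.8%). The 4 later libraries could not be ordered. Over all T cells, pretreatment day 0 was above both day 7 libraries, with ratios of 0.715 for control over pretreatment (0.536 to 0.961, and 0.552 when thinned, 0.337 to 0.922) and 0.618 for L-fuc (0.464 to 0.829). Among T cells with a receptor chain the control ratio was 0.974 (0.690 to 1.39), which leaves no difference beyond counting error. That ratio was not computed for L-fuc day 7 over pretreatment day 0. In macrophage-like cells, which should lack Foxp3, it was found in 0.297% to 1.65%, in every library below the share in T cells.

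Il2ra was found in 16.1%, 12.3%, 15.2%, 23.9% and 16.0% of T cells, listed as pretreatment, then control and L-fuc at day 7, then control and L-fuc at day 21, and Ikzf2 in 26.6%, 28.5%, 32.2%, 35.8% and 28.0%. Control day 21 was highest for both, and its interval overlapped those of the other libraries except control day 7 for Il2ra (14.3 to 35.9% against 10.7 to 14.1%).

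The TNF receptors and Icos had control day 21 at the top. In the same order, Tnfrsf4 was found in 28.7%, 17.4%, 24.0%, 47.8% and 22.0% of T cells, and Tnfrsf9 in 23.5%, 17.8%, 24.2%, 47.8% and 22.0%. Tnfrsf18 was the most widespread, in 54.1%, 31.0%, 49.1%, 61.2% and 46.0%, and Icos was in 27.7%, 17.7%, 31.3%, 56.7% and 28.0%. For these 4 genes control day 7 was the lowest of all 5 libraries (after thinning, the lowest except L-fuc day 21 for all but Tnfrsf18), and its interval lay below that of L-fuc day 7 for all 4 and below that of pretreatment day 0 for all except Tnfrsf9.

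**Figure D3:**
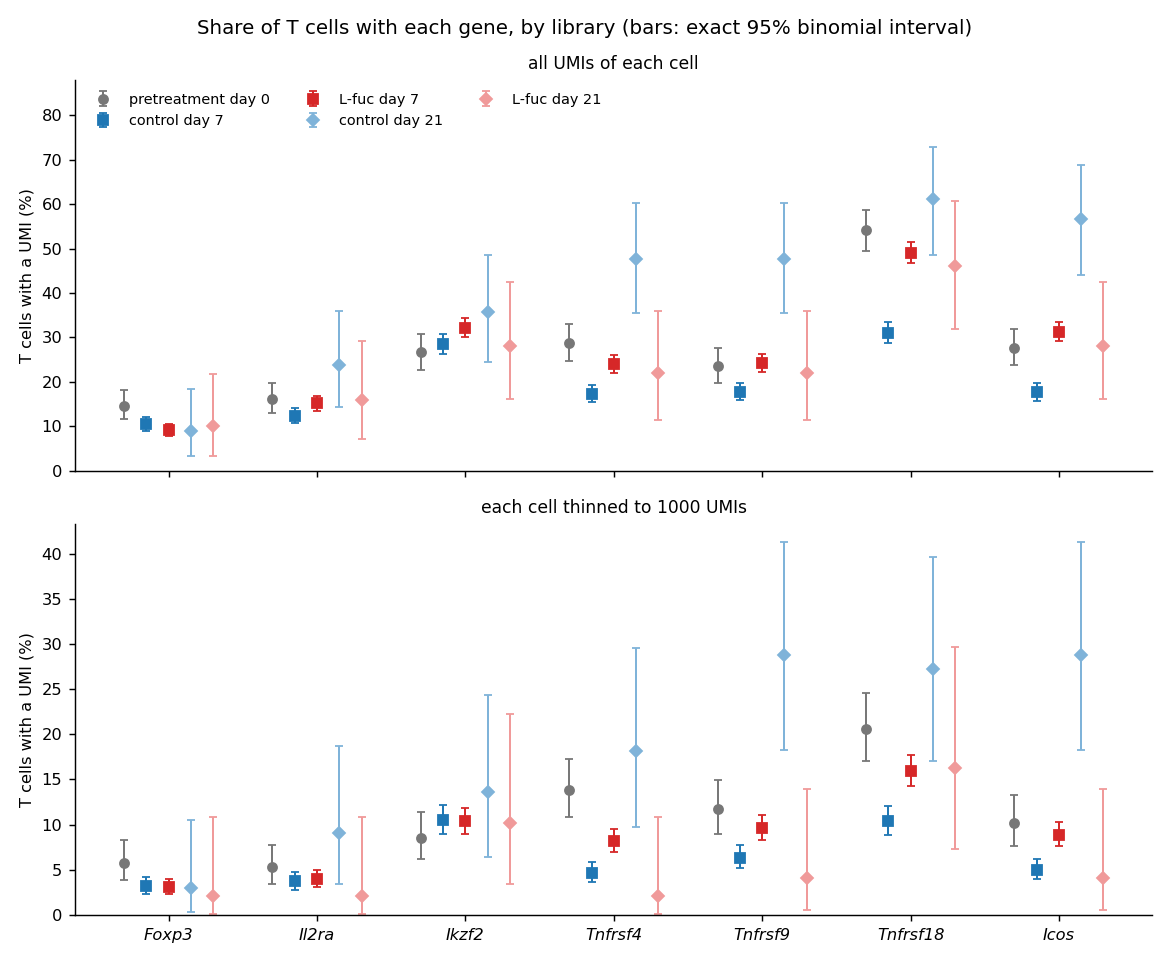
Percent of T cells with at least 1 UMI of each gene in the 5 libraries, with all UMIs (upper panel) and with each cell thinned to 1000 UMIs (lower panel); bars are exact 95% binomial intervals. Foxp3 lies between 8.96% and 14.7% in all libraries, while Tnfrsf4, Tnfrsf9, Tnfrsf18 and Icos are lowest in control day 7 and highest in control day 21 in the upper panel.

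At day 7, T cells of the L-fuc library carried the 4 costimulators more often than those of the control library, while the share with Foxp3 did not differ beyond counting error. The comparison asked how the L-fuc and control tumors differed after a week. The L-fuc over control ratio of shares was 0.864 for Foxp3 (interval 0.691 to 1.08), 1.23 for Il2ra (1.02 to 1.50) and 1.13 for Ikzf2 (0.995 to 1.28). It was 1.38 for Tnfrsf4 (1.18 to 1.62), 1.36 for Tnfrsf9 (1.17 to 1.59), 1.58 for Tnfrsf18 (1.41 to 1.77) and 1.77 for Icos (1.53 to 2.05). Thinned to 1000 UMIs, the last 4 ratios were 1.76, 1.51, 1.53 and 1.77, each interval above 1, while Foxp3, Il2ra and Ikzf2 gave 0.978, 1.06 and 0.990. With a gate of 1 Cd3 UMI in place of 2, the Foxp3 ratio was 1.37.

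The ratios were smaller among T cells with a receptor chain: 1.26 for Tnfrsf4 (1.05 to 1.53), 1.21 for Tnfrsf9 (1.00 to 1.47), 1.41 for Tnfrsf18 (1.23 to 1.62) and 1.72 for Icos (1.44 to 2.06), with 0.874 for Foxp3. Control day 7 T cells differed from L-fuc day 7 T cells in their Sparc, Ptprc and Lck content given above, whose part in these ratios was otherwise not tested.

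In summed levels over all T cells the same 4 genes had the largest differences of the members. Icos was at 106 UMIs per 1000000 in L-fuc day 7 against 45.2 in control day 7 (log2 ratio 1.23, interval 1.08 to 1.39), Tnfrsf9 at 168 against 79.6 (1.07), Tnfrsf4 at 124 against 64.3 (0.95) and Tnfrsf18 at 174 against 94.5 (0.88). The levels of Foxp3 (log2 ratio 0.44, interval 0.22 to 0.67), Ikzf2 (0.34, 0.23 to 0.45) and Il2ra (0.33, 0.14 to 0.52) were also higher in L-fuc day 7, by less. Of 13519 genes, 4.09% were at least 2-fold higher and 7.81% at least 2-fold lower in L-fuc day 7, and of the 7 members 2 were at least 2-fold higher and none lower. The members' median log2 ratio was 0.88 against -0.13 over all genes. The difference was not particular to the members. All 9 other TNF and CD28 family genes (median 0.74) and all 10 IL-2 pathway genes (0.69) were also higher. So were 15 of 19 tested Treg signature genes (0.55). Ctla4 (1.35) was above each member, and Pdcd1 (0.98) above Tnfrsf4 and Tnfrsf18.

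Among Foxp3+ cells, Tnfrsf4 and Icos were also more frequent in L-fuc day 7. The ratio was 1.42 for Tnfrsf4 (1.07 to 1.88), with 77.6% against 54.8%, and 1.64 for Icos (1.21 to 2.24), with 72.1% against 43.9%. For Tnfrsf9 (1.32, 0.986 to 1.77), Il2ra (1.33, 0.956 to 1.85), Tnfrsf18 (1.22, 0.941 to 1.59) and Ikzf2 (1.14, 0.884 to 1.47) the intervals included 1. After thinning, the ratios were 2.18 for Tnfrsf4 (1.34 to 3.64), 1.84 for Tnfrsf9 (1.14 to 3.05), 1.78 for Tnfrsf18 (1.13 to 2.88) and 2.01 for Icos (1.04 to 4.11). The classes compared differed in makeup, since 37.6% of L-fuc and 69.4% of control Foxp3+ cells had a single Foxp3 UMI and 63.6% and 32.5% had a Cd4 UMI, and the part of this in the ratios was not tested.

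Over all Foxp3-negative cells the ratio was 1.44 for Tnfrsf4 (1.19 to 1.74), 1.44 for Tnfrsf9 (1.20 to 1.73), 1.71 for Tnfrsf18 (1.51 to 1.94) and 1.86 for Icos (1.57 to 2.21). Thinned, it was 1.38 (0.965 to 1.99), 1.33 (0.961 to 1.85), 1.66 (1.31 to 2.11) and 2.04 (1.45 to 2.91), so that only the intervals of Tnfrsf18 and Icos lay above 1. The smaller classes within them were less precise. In Cd8a-positive cells, Tnfrsf18 was in 48.3% in L-fuc day 7 against 34.2% in control day 7 (ratio 1.41, 1.14 to 1.76) and Icos in 32.1% against 18.3% (1.75, 1.32 to 2.34). In Cd4-positive Cd8a-negative cells, Tnfrsf18 was in 62.5% against 46.7% (1.34, 1.02 to 1.77) and Icos in 46.6% against 33.6% (1.39, 1.01 to 1.94). The ratios of Tnfrsf4 were 1.14 (0.800 to 1.62) and 1.16 (0.833 to 1.65) and those of Tnfrsf9 1.33 (0.968 to 1.84) and 1.07 (0.747 to 1.56) in these classes. Thinned, each interval of these 4 genes in these smaller classes included 1.

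**Figure D4:**
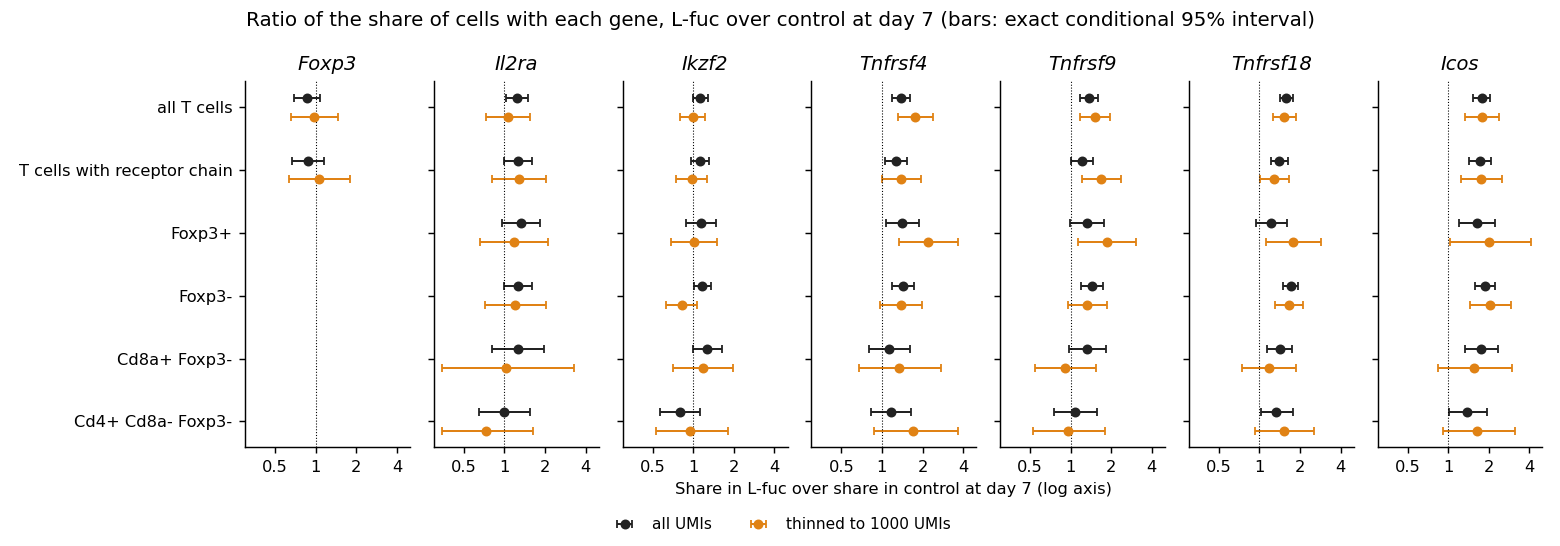
Ratio of the share of cells with each gene in L-fuc day 7 over control day 7 (log axis), in all T cells and in classes of T cells, with all UMIs and after thinning to 1000 UMIs; bars are exact conditional 95% intervals and the dotted line marks a ratio of 1. In all T cells the intervals of Tnfrsf4, Tnfrsf9, Tnfrsf18 and Icos lie above 1 in both versions, and those of Foxp3 include it.

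Il2, which encodes the cytokine that CD25 binds, had 306 UMIs in L-fuc day 7 T cells and 9 in control day 7 T cells (log2 ratio 4.33, interval 3.53 to 5.62). The UMIs came from few cells: in Cd8a-positive Foxp3-negative cells 2.38% against 0.990% had any, with 173 UMIs against 4. Of the 10 IL-2 pathway genes, 2 were at least 2-fold higher in L-fuc day 7 and none lower, with a median log2 ratio of 0.69. The corresponding counts were 5 higher and none lower of 19 for the Treg signature and none of 10 for TNF receptor signalling. For the 9 other TNF and CD28 family genes they were 1, the ligand gene Cd40lg (1.77), and none.

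Set against pretreatment day 0, the summed levels over all T cells of control day 7 were lower for 6 of the 7 members and higher for Ikzf2. Tnfrsf4 in T cells was at 64.3 against 201 UMIs per 1000000 (log2 ratio -1.64), Tnfrsf9 at 79.6 against 191 (-1.27) and Tnfrsf18 at 94.5 against 212 (-1.17), so 3 of the 7 members were at least 2-fold lower and none higher. Foxp3 was at 24.6 against 48.7 (-0.99, interval -1.27 to -0.70), Icos and Il2ra had log2 ratios of -0.96 and -0.60, and Ikzf2 was at 96.7 against 78.5 (0.30, 0.11 to 0.49). Over 12541 genes, 5.16% were at least 2-fold lower and 22.0% higher in control day 7. The median log2 ratio was 0.29 over all genes and -0.99 over the members, so Ikzf2 lay at the level of the typical gene. Over the 9 other TNF and CD28 family genes the median was -1.15, with none higher. The ratios of shares were 0.605 for Tnfrsf4 (0.490 to 0.749), 0.757 for Tnfrsf9 (0.605 to 0.952), 0.573 for Tnfrsf18 (0.491 to 0.670) and 0.640 for Icos (0.517 to 0.794). Among T cells with a receptor chain they were nearer 1, at 0.824 (0.645 to 1.06), 0.963 (0.742 to 1.26), 0.753 (0.630 to 0.903) and 0.795 (0.623 to 1.02), in the same order, with 0.974 for Foxp3 (0.690 to 1.39) and 1.34 for Ikzf2 (1.05 to 1.72). Classes differed in direction. In Cd4-positive Cd8a-negative Foxp3-negative cells the ratio was 2.79 for Il2ra (1.26 to 7.01) and 2.13 for Ikzf2 (1.23 to 3.86). Thinned, both intervals included 1. Tnfrsf4 (1.31), Tnfrsf9 (1.67), Icos (1.32) and Tnfrsf18 (0.884) had intervals that included 1 there. Il2ra gave 0.640 in Foxp3+ cells (0.432 to 0.953) and 1.16 in all Foxp3-negative cells (0.773 to 1.78). L-fuc day 7 over pretreatment day 0 gave 0.836 for Tnfrsf4 (0.688 to 1.02), 0.907 for Tnfrsf18 (0.789 to 1.05) and 1.13 for Icos (0.935 to 1.38). Thinned, the ratios of Tnfrsf4 (0.593, 0.440 to 0.806) and Tnfrsf18 (0.770, 0.610 to 0.980) lay below 1. That of Icos (0.868, 0.625 to 1.22) did not differ beyond counting error. The comparisons of control day 7 with pretreatment day 0 and with L-fuc day 7 share the control day 7 library.

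At day 21 the direction was the opposite, on few cells. Tnfrsf4 was found in 11 of 50 L-fuc and 32 of 67 control T cells, and Tnfrsf9 in the same numbers (ratio 0.461, interval 0.209 to 0.938, for each). Icos was in 14 of 50 and 38 of 67 (0.494, 0.247 to 0.932), Tnfrsf18 in 23 of 50 and 41 of 67 (0.752, 0.431 to 1.28), and Foxp3 in 5 of 50 and 6 of 67 (1.12, 0.270 to 4.39). The T cells of these libraries also differed in marker content, with Lck in 58.0% of L-fuc and 88.1% of control T cells, Trac in 38.0% and 77.6%, Sparc in 24.0% and 13.4%, and no Ptprc UMI in 26.0% and 4.48%, whose part in the ratios was not tested beyond the receptor-bearing cells. Thinned to 1000 UMIs, the L-fuc and control shares were 2.04% and 18.2% for Tnfrsf4, 4.08% and 28.8% for Tnfrsf9 and for Icos, and 16.3% and 27.3% for Tnfrsf18. In T cells with a receptor chain, 22 in L-fuc and 52 in control, every unthinned interval included 1, with 0.788 for Tnfrsf4 (0.326 to 1.73), 0.727 for Tnfrsf9 (0.285 to 1.65), 1.12 for Tnfrsf18 (0.588 to 2.04) and 0.722 for Icos (0.332 to 1.45). Thinned as well, Icos was in 4.55% against 34.6% (0.131, 0.00315 to 0.832) and the other intervals included 1.

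Summed levels at day 21 were lower in L-fuc for Tnfrsf9 (54.8 against 382 UMIs per 1000000, log2 ratio -2.78), Icos (77.9 against 325, -2.05), Tnfrsf4 (62.5 against 194, -1.62) and Tnfrsf18 (103 against 251, -1.28). These 4 of 7 were at least 2-fold lower and none was higher, where 8.96% of 8088 genes were at least 2-fold lower and 8.12% higher. The members' median was -1.28 against -0.09 over all genes. The median was -1.58 over the 6 tested other TNF and CD28 family genes, none of them higher. The T cells summed also differed in makeup. Foxp3-negative cells with neither a Cd4 nor a Cd8a UMI were 27 of 50 in L-fuc day 21, 2 of them with a receptor chain. In control day 21 they were 13 of 67, 4 of them with a chain. In L-fuc day 21 they held 567078 of 1039321 T cell UMIs, with Tnfrsf9 at 3.53 per 1000000. The part of this in the levels was not tested.

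Cd4-positive Foxp3-negative cells were the largest class of T cells in control day 21, and many of them carried the costimulators. Of 29 such cells, 24 carried Tnfrsf4 (82.8%), 21 Tnfrsf9 (72.4%), 25 Tnfrsf18 (86.2%) and 22 Icos (75.9%), against 24.5%, 17.0%, 52.8% and 25.5% of 106 at pretreatment day 0. The ratios were 3.37 for Tnfrsf4 (1.85 to 6.11), 4.26 for Tnfrsf9 (2.16 to 8.49) and 2.98 for Icos (1.62 to 5.43), while that of Tnfrsf18 was 1.63 (0.976 to 2.66). All 3 TNF receptors were present together in 17 of the 29 cells (58.6%). L-fuc day 21 had 9 such cells, of which 6 carried Tnfrsf4, 5 Tnfrsf9, 8 Tnfrsf18 and 6 Icos. In this class the L-fuc over control ratios at day 21 were 0.806 for Tnfrsf4 (0.269 to 2.02) and 0.767 for Tnfrsf9 (0.226 to 2.09). They were 1.03 for Tnfrsf18 (0.402 to 2.36) and 0.879 for Icos (0.292 to 2.23), so each interval included 1. Cd8a-positive Foxp3-negative cells of control day 21 carried Tnfrsf4 and Tnfrsf9 in 2 of 19 each. Icos was in 10 of these 19 cells (52.6%, interval 28.9 to 75.6%), against 26.1% (19.0 to 34.2%) at pretreatment day 0. These intervals overlapped. Thinned, Icos was in 0 of 19 cells of this class in control day 21 and in 5 of 138 at pretreatment day 0. Of the 6 Foxp3+ cells of control day 21, 6 carried Tnfrsf9 and 4 Icos. Their levels of 1661 and 1296 UMIs per 1000000 rested on 41 and 32 UMIs. Over Foxp3+ cells of pretreatment day 0, the ratios of shares were 1.46 (0.510 to 3.41) and 1.01 (0.265 to 2.78). The classes also differed in number, since Cd4 mRNA was found in 50.7% of control day 21 T cells and 26.0% of L-fuc day 21 T cells.

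No member was called different between Cd8a-positive and Cd8a-negative T cells, both without Foxp3, and all 6 log2 fold changes were below 0. In edgeR over 4 libraries (L-fuc day 21 had 9 such cells and was left out), 0.0762% of 10494 genes were called higher and 0.0286% lower in Cd8a-positive than in Cd8a-negative cells, and 0 of the 6 members. DESeq2 called 68 genes higher and 64 lower, and 1517 genes had an unadjusted p under 0.05 in edgeR. Without control day 21 edgeR called 48 genes higher and 63 lower, again with no member among them, and without control day 7 it called 0 and 0. The member log2 fold changes ran from -0.48 for Tnfrsf4 (SE 0.22, adjusted p = 0.352) to -0.14 for Ikzf2 (SE 0.22, adjusted p = 0.862), with a median of -0.35 against -0.01 over all genes. A median of this size with such errors does not show that the classes are alike.

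Il2ra was at 0 in Cd8a-positive against 95.7 UMIs per 1000000 in Cd8a-negative cells of control day 21, and between 16.6 and 31.0 in both classes of the other libraries. Tnfrsf9 differed in direction between libraries, at 132, 75.9, 103 and 54.0 UMIs per 1000000 in Cd8a-positive cells at pretreatment, in both day 7 libraries (control first) and in control day 21, against 80.0, 51.9, 126 and 446 in Cd8a-negative cells. Its log2 fold change of -0.15 became 0.30 without control day 21. The check gene Cd8b1, the CD8 beta chain, was higher (3.06, SE 0.31, edgeR adjusted p = 0.0214), as were Adgrg1 (1.93), Trgv2 (1.40), Ctla2a (1.29), Pde3b (1.13), Atp8b4 (1.04), Themis (0.98) and 1700017B05Rik (0.93), and Stfa3 (-3.30), Acta2 (-3.11) and Car9 (-1.42) were lower. No gene of the 5 lists was called.

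Setting Cd8a-positive Cd4-negative against Cd4-positive Cd8a-negative cells, an alternative chosen after seeing the data, Tnfrsf4 was lower in the Cd8a-positive cells (log2 fold change -1.77, edgeR adjusted p = 0.00888), as was Icos (-1.34, 0.00657). Over all Cd8a-positive T cells, Foxp3 was found in 9.21%, 9.21%, 7.34%, 0% and 18.2% in the order of libraries used above. The 0% stands for 0 of 19 cells, with an exact interval up to 17.6% of cells with a UMI, and the 18.2% for 2 of 11.

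The receptor libraries measured how often Foxp3+ cells shared a receptor with other cells. A productive chain was recovered for 72.9% of Foxp3+ cells at pretreatment day 0 (51 of 70), 65.0% in control day 7 (102 of 157) and 72.7% in L-fuc day 7 (120 of 165). Of these, 19.6% (interval 9.82 to 33.1%), 39.2% (29.7 to 49.4%) and 45.8% (36.7 to 55.2%) belonged to a clonotype, a set of cells with the same receptor, of at least 2 barcodes. In Cd8a-positive Foxp3-negative cells the shares were 37.7%, 63.4% and 63.2%, and in Cd4-positive Cd8a-negative Foxp3-negative cells 18.1%, 40.7% and 51.4%. Cd8a-positive cells had the highest of these shares in each of the 3 libraries, and the Foxp3+ intervals of the day 7 libraries overlapped. The number of cells sequenced sets how often a receptor is seen again, and it differed between libraries.

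Foxp3+ cells fell into 48, 88 and 89 clonotypes in pretreatment day 0, control day 7 and L-fuc day 7, of which 6 (12.5%), 20 (22.7%) and 18 (20.2%) also held Foxp3-negative T cells. Of these shared clonotypes, 4, 9 and 9 held Cd8a-positive Foxp3-negative cells. The shared clonotypes held 12, 147 and 69 Foxp3-negative cells in all. Clonotypes with at least 2 Foxp3+ cells numbered 3, 8 and 12, and the largest held 2, 4 and 7 Foxp3+ cells. At day 21, 5 Foxp3+ cells in control and 3 in L-fuc had a chain.

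In the classes measured outside T cells the members were sparse, with exceptions. These classes did not include conventional or mature dendritic cells. NK-like cells (699 in the day 7 libraries) held Tnfrsf18 at 56.8 and 109 UMIs per 1000000 and Tnfrsf9 at 33.1 and 98.6, but Tnfrsf4 at 4.73 and 3.65 (control, then L-fuc, for each). Plasmacytoid dendritic (pDC)-like cells held Ikzf2 at 33.7 to 41.2 and Il2ra at 22.5 to 24.0. Mast or basophil-like cells, seen in L-fuc day 7 alone in sufficient number (109 cells), held Ikzf2 at 70.5 and Tnfrsf18 at 54.1, and B-like cells held Tnfrsf18 at 12.6 to 18.0. In macrophage-like cells (3182) no member exceeded 7.07 UMIs per 1000000, and in tumor or stroma-like cells none exceeded 5.65.

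The ligands were followed in the same classes. Tnfsf9, the ligand of 4-1BB, was at 59.0 to 182 UMIs per 1000000 in macrophage-like cells, where it was found in 14.3% to 24.0% of cells, and at 29.6 to 114 in Foxp3+ cells. These Foxp3+ cells include C1q-rich ones, whose part in the level was not tested. Tnfsf9 was also found in 17.6% to 29.7% of tumor or stroma-like cells, at 18.3 to 28.9. It was at 40.1 to 65.8 in Cd8a-positive and 45.3 to 74.1 in Cd4-positive Cd8a-negative cells, both Foxp3-negative. In B-like and NK-like cells it reached 93.1 and 63.9. Icosl, the ligand of ICOS, was at 19.3 to 45.9 in macrophage-like cells and at 83.3 in B-like cells of pretreatment day 0. Cd86, which binds CD28 and CTLA4, was at 85.3 to 133 in macrophage-like cells. Tnfsf4 and Tnfsf18, the ligands of OX40 and GITR, did not exceed 7.09 and 0.377 in any class measured. Conventional and mature dendritic cells were not among the classes measured, so these values say nothing of them.

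**Figure D5:**
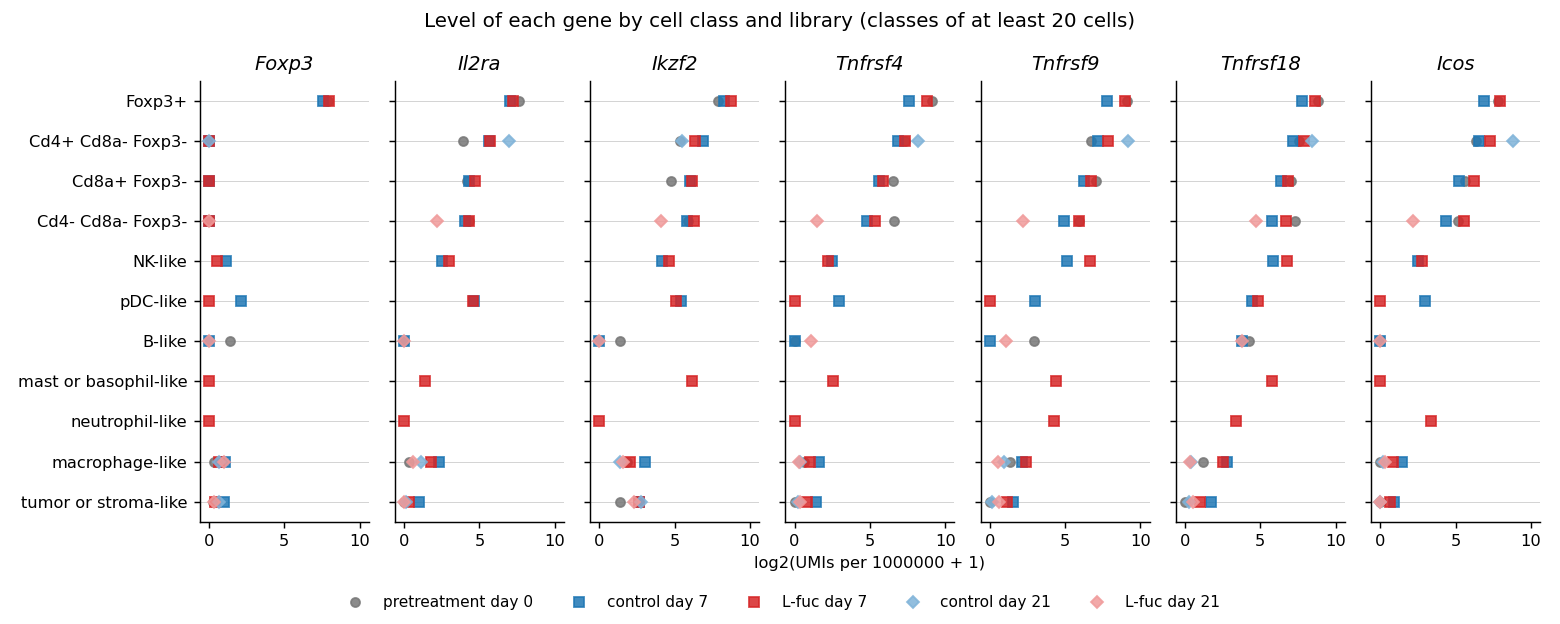
Level of each of the 7 genes, as log2(UMIs per 1000000 + 1), in each cell class and library (symbols), for classes of at least 20 cells; the Foxp3 panel follows from the definition of the classes. Il2ra, Ikzf2, Tnfrsf4 and Tnfrsf18 are highest in Foxp3+ cells, Tnfrsf9 (589 UMIs per 1000000) and Icos (448) in Foxp3-negative Cd4+ cells of control day 21, and Tnfrsf9 and Tnfrsf18 also reach 98.6 and 109 in NK-like cells.

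Likeness of pattern was described by Pearson's r of log2(UMIs per 1000000 + 10) over 33 sums of a class in a library, among 10376 genes, which share libraries and were not independent. Foxp3 was most like Lrrc32 (0.91) and Rln3 (0.83), both already called higher in Foxp3+ cells. Foxp3 is absent by definition from the Foxp3-negative T cell sums, so its r adds no support of its own. The sums also cover classes outside T cells, and r is not given within T cells alone. Icos and Tnfrsf4 were each other's close match (0.97), with Ctla4 at 0.98 for both and Cd5 at 0.98 for Tnfrsf4. Il2ra was most like Ctla4 (0.92) and Icos (0.91), Ikzf2 most like Il2ra and Sytl1 (0.89 each), Tnfrsf9 most like Rnf125 (0.96) and Icos (0.95), and Tnfrsf18 most like Il27ra (0.96) and Tnfrsf9 (0.95).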

How the data were processed

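Intratumoral cells of 5 pooled tumor samples were profiled by 10x single-cell RNA sequencing with matched T cell receptor libraries. The deposited matrices hold raw UMI counts per gene and barcode, and the deposited receptor tables hold UMI counts per contig and the authors' clonotypes. The submitters' processing notes name Cell Ranger 3.0, Seurat 4.0 and mm10, and a file header names Cell Ranger 7.1.0. Library totals were 14439185 to 119047810 UMIs. No doublet caller was run, and the main results include the C1q-rich T cells. T cells with at least 5 UMIs of C1qa, C1qb and C1qc together were left out in an alternative. T cell and Foxp3+ gates, Clopper-Pearson and Poisson intervals, exact conditional intervals of ratios and thinning to 1000 UMIs were computed in Python 3.11.15 (scipy 1.17.1). These intervals treat cells as independent draws. Ratios of levels used a pseudocount of 1 UMI and genes with at least 20 UMIs. Class sums were tested with edgeR 4.0.16 (TMM, filterByExpr, glmQLFTest) in R 4.3.3, with DESeq2 1.42.0 as an alternative, and the fit was tested on simulated data. Cell classes outside T cells were named by at least 2 detected markers of a list. The members, lists and rules were chosen with earlier results of these data known. Named genes were the members, the 55 genes of the 5 lists, the 10 largest and 5 smallest log2 fold changes among called genes, and 2 most-like genes per member. Each pool is 1 sample, and the library block takes up differences in level between libraries. The p-values therefore rest on how the difference between classes varied over libraries, with dispersion shared over genes.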

Additional observations from a re-analysis of the deposited data

Results flagged for a closer look

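At day 7 and day 21 the L-fuc and control libraries differed in opposite directions, with the counting interval on both days excluding equality in each case given here. The L-fuc over control ratio of the share of T cells was 3.00 times as large at day 7 as at day 21 for Tnfrsf4 (1.38 against 0.461), 2.95 times for Tnfrsf9 (1.36 against 0.461) and 3.58 times for Icos (1.77 against 0.494). In T cell levels, the log2 ratio at day 7 minus that at day 21 was 3.86 for Tnfrsf9, 3.28 for Icos, 2.57 for Tnfrsf4, 2.16 for Tnfrsf18, 1.27 for Ikzf2 and 1.19 for Il2ra. With 1 library per condition the difference between the days was not tested. The day 21 ratios of shares rested on 67 and 50 T cells, and in T cells with a receptor chain their intervals included 1, except for Icos when also thinned to 1000 UMIs (0.131, 0.00315 to 0.832).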

How the results depend on the processing

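All 6 members stayed called in Foxp3+ cells with DESeq2, without TMM, without a filter, without each library in turn, at 2 Foxp3 UMIs, without C1q-rich cells, at 200 genes, after thinning and in receptor-bearing cells. Exceptions were the fit without a library block (edgeR adjusted p from 0.141 to 1.00) and Cd4-positive Foxp3-negative cells as the reference (3 of 6). In counts of calls (150 higher and 100 lower in Foxp3+ cells), DESeq2 gave 46 lower, no filter 290 and 411, no library block 0 and 0, removal of C1q-rich cells 271 and 224, thinning 58 and 18, the Cd4-positive reference 20 and 21, and receptor-bearing cells 58 lower. Leaving out 1 library gave 123 to 360 higher and 95 to 389 lower, the most without pretreatment day 0.

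In the Cd8a comparison (8 higher, 3 lower), DESeq2 gave 68 and 64, no filter 317 and 553, no library block 0 and 0, 2 Cd8a UMIs 33 and 42, removal of C1q-rich cells 15 and 6, thinning 56 and 64, receptor-bearing cells 6 lower and the Cd4-positive reference 32 lower. Leaving out 1 library gave 0 to 48 higher and 0 to 63 lower: 48 and 63 without control day 21, 27 and 19 without pretreatment day 0, 1 and 1 without L-fuc day 7, and 0 and 0 without control day 7. Tnfrsf9 changed sign without control day 21 and at 2 Cd8a UMIs (0.068), and Ikzf2 without pretreatment day 0, with no call in either direction. Leaving out 1 library gave -0.51 to 0.30 for Tnfrsf9 and -0.25 to 0.043 for Ikzf2.

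Ratios at day 7 moved most with the T cell gate. With 1 Cd3 UMI they were 1.37 (Foxp3), 1.89 (Il2ra), 1.66 (Ikzf2), 2.18 (Tnfrsf4), 2.25 (Tnfrsf9), 2.66 (Tnfrsf18) and 2.70 (Icos), and with 3 UMIs 1.17 (Tnfrsf4), 1.12 (Tnfrsf9) and 1.33 (Tnfrsf18). Thinning to 1000 UMIs gave 0.990 (Ikzf2) and 1.76 (Tnfrsf4), and to 2000 UMIs 1.11 (Foxp3). Receptor-bearing cells gave 1.41 (Tnfrsf18), and when also thinned, chosen after seeing the data, 0.973 (Ikzf2), 1.68 (Tnfrsf9) and 1.29 (Tnfrsf18). At day 21, thinning to 1000 UMIs gave 0.224 (Il2ra), 0.112 (Tnfrsf4) and 0.142 (Tnfrsf9 and Icos), to 2000 UMIs 0.164 (Il2ra), and receptor-bearing thinned cells 0 (Foxp3), 2.36 (Il2ra) and 0.131 (Icos). At day 21 a minimum of 50 UMIs left 273 genes at least 2-fold higher and 383 lower, where 20 UMIs gave 657 and 725, and a pseudocount of 5 gave 346 higher. Clonotypes of at least 3 barcodes held 28.4%, 34.2% and 0% of Foxp3+ cells in control day 7, L-fuc day 7 and control day 21. The causes were not tested.

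No paired analysis was possible because each condition was 1 pool of mice; this holds for comparisons of conditions, while the classes of cells were compared within libraries. At these depths few Foxp3+ cells at day 21 (6 and 5) leave no member's ratio there resolved.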
